A study of Mus musculus with 8 samples.

Results

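The genes described here encode the subunits of the receptors for glutamate and GABA, the main excitatory and inhibitory transmitters of the cortex. They were taken by symbol, as all AMPA (Gria), NMDA (Grin), kainate (Grik), delta (Grid) and metabotropic (Grm) glutamate receptor genes and all GABA-A (Gabr) and GABA-B (Gabbr) receptor genes of the deposited gene list. Of 27998 genes, 47 had such a symbol, and 38 of these had 20 or more UMIs over the cells of both libraries and are the members. A UMI is a tag that marks 1 captured RNA molecule. The members comprise 4 AMPA, 5 NMDA, 5 kainate, 2 delta, 7 metabotropic, 13 GABA-A and 2 GABA-B genes. Just inside the threshold were Grin2c with 21 UMIs and Grm8 with 27, and just outside it was Gabre with 9. The other 8 genes with such a symbol had 5 UMIs or fewer.

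Both groups were cortices of CD1 mice, an outbred strain, dissected at embryonic day 16.5. For the ShhN group, a plasmid encoding ShhN, the amino-terminal part of the morphogen SHH that carries its signal, was introduced by in utero electroporation (IUE) at E13.5. IUE delivers DNA to a part of the progenitors that line the ventricle. The WT group consisted of littermates, and the labels do not say whether these were electroporated with another plasmid. Each group had 4 samples, but the deposited counts are 1 matrix per group with no map from cells to samples, so each group was 1 library. There was therefore no test between groups, and no difference between them has a replicate check.

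The ShhN library held 69470062 UMIs and 8068 cells were kept, with a median of 6684 UMIs per cell. The WT library held 63760199 UMIs and 6953 cells were kept, with a median of 6275 UMIs per cell. Shh itself had 5904 UMIs in ShhN cells and 0 in WT cells, and Ptch1, a direct target and receptor of SHH, had 1930 UMIs in ShhN cells and 251 in WT cells. The libraries shared 72 kept barcodes. Among markers of cells that do not belong to the neural lineage, the 8 erythroid genes summed to 4416 CPM (UMIs per 1000000 UMIs of the same cells) in the ShhN library and 8448 CPM in the WT library. The 7 mural genes summed to 31.0 CPM in the ShhN library and 64.3 CPM in the WT library, and the 8 microglial genes to 12.3 CPM in the ShhN library and 10.3 CPM in the WT library. The 6 choroid plexus markers summed to 0.227 CPM in ShhN and 9.64 CPM in WT, with Kl at 0 in ShhN and Kcne2 and Kl at 0 in WT. The part of these differences in the results was not tested.

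As background, glutamate opens AMPA, NMDA and kainate receptors, which are channels that let cations in, and it also acts through slower metabotropic receptors coupled to G proteins. GABA opens GABA-A receptors, which are chloride channels built of several kinds of subunit, and acts through GABA-B receptors, which are coupled to G proteins. In the embryonic cortex GABA usually depolarizes cells, because their chloride content is high, and both transmitters act on progenitors and migrating neurons before synapses form.

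Cell classes were set by counting detected markers, none of which is a receptor gene. They were radial glia (the ventricular stem cells), intermediate progenitors (their dividing neurogenic daughters), migrating, upper layer and deep layer excitatory neurons, Cajal-Retzius cells (the Reln-producing cells of the marginal zone), 3 groups of GABAergic cells, glial progenitors, vascular or meningeal cells, microglia and erythroid cells. The GABAergic cells were an Lhx6-group, with markers of interneurons of the medial ganglionic eminence, an Npas1-group, with markers of interneurons of the caudal eminence, and other Dlx cells. The leading genes included Fabp7, Mt3 and Aldoc in radial glia, Sst, Maf and Nxph1 in the Lhx6-group and Reln in Cajal-Retzius cells, while Shh led the upper layer neurons of ShhN. All of these but Mt3 and Shh were among the markers that defined the classes, so their lead is no separate check of the names. No class could be given to 27.6% of ShhN cells and 24.4% of WT cells, and 1039 cells lay within 0.1 of the margin that separated the 3 excitatory classes. The unassigned cells were led by S100a8 and S100a9, genes of myeloid cells, in ShhN and by Hbb-y, the neurofilament genes Nefl and Nefm, and Gabra2 in WT.

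The make-up of the libraries differed. Lhx6-group cells were 222 in ShhN and 549 in WT, or 2.75% of ShhN cells and 7.90% of WT cells. Other Dlx cells were 249 in ShhN and 56 in WT, and 54.6% of these ShhN cells and 3.57% of these WT cells carried a UMI of the division genes Mki67 or Top2a. Intermediate progenitors were 885 in ShhN and 547 in WT, with 41.4% of ShhN cells and 13.7% of WT cells carrying such a UMI. Classes with 100 or more cells in both libraries, of which there were 6, were compared between them: radial glia, intermediate progenitors, migrating, upper layer and deep layer neurons and the Lhx6-group.

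A difference was said to pass the size rule where both sides together had 50 or more UMIs, the log2 ratio of CPM was at least 1 in size, and its 95% exact interval stayed at least 0.5 away from 0. All intervals cover counting error only. Of the members, 33 had 50 or more UMIs in the kept cells and could be measured over all cells. The 5 that could not were Gabrg1, Gabrr2, Grin2c, Grm4 and Grm8.

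**Figure D1:**
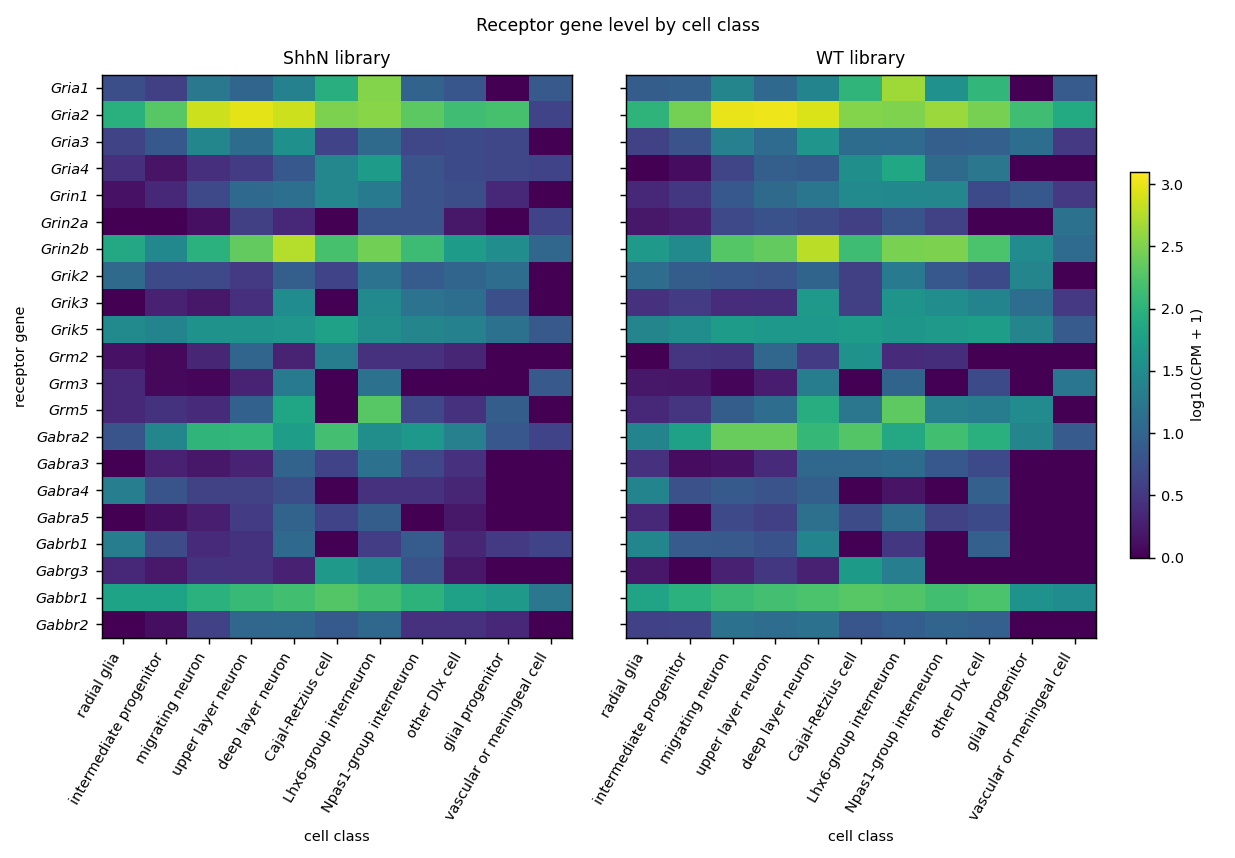
Level of receptor genes with 200 or more UMIs in each of 11 cell classes, as log10(CPM + 1), with ShhN on the left and WT on the right. Gria1, Gria4 and Grm5 are brightest in the Lhx6-group, Grin2b and Grik3 are bright in deep layer neurons, and Gabra2 is darker in ShhN than in WT in every class shown.

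Over all cells, receptor RNA took up less of the ShhN library than of the WT library. The 38 members summed to 67947 UMIs in ShhN and 77933 in WT, or 1186 CPM in ShhN and 1670 CPM in WT. The log2 ratio was -0.49 (95% interval -0.51 to -0.48). None of the 33 measured members was higher past the size rule, where 2.84% of 13028 genes were, and 7 were lower, where 1.85% of these genes were. The median log2 ratio was -0.60 over the members and -0.08 over all genes measured, and 31 of the 33 members were below 0. The GABA-A family was at 135 CPM in ShhN and 273 CPM in WT (log2 ratio -1.01, -1.05 to -0.97), and Gabra2 alone held 4354 of its 7756 UMIs in ShhN and 8521 of its 12741 in WT. The AMPA family was at 669 CPM in ShhN and 869 CPM in WT (-0.38, -0.40 to -0.36). In sums over all cells, fewer cells of a type and less RNA per cell cannot be told apart.

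The 7 members lower over all cells were Gabra2, Gabrb1, Gria1, Gria4, Grin2a, Grid1 and Grik1. Gabra2, the alpha-2 subunit that prevails in embryonic GABA-A receptors, had 4354 UMIs in ShhN and 8521 in WT (log2 ratio -1.26, -1.32 to -1.21). Gabrb1, a beta subunit of the same receptors, had 239 UMIs in ShhN and 440 in WT (-1.18, -1.41 to -0.95). Grin2a, the NMDA subunit whose level increases after birth, had 77 UMIs in ShhN and 210 in WT (-1.74, -2.14 to -1.36). These 3 genes also passed when each class was weighted to its WT share, with ratios of -1.19, -1.21 and -1.51.

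The other 4 did not pass with that weighting. Gria1, an AMPA subunit, had 1133 UMIs in ShhN and 1970 in WT (-1.09, -1.20 to -0.99), but its ratio was -0.47 with classes at their WT shares. Gria4, another AMPA subunit, had 228 UMIs in ShhN and 417 in WT (-1.17, -1.41 to -0.93), against -0.67 with that weighting. GABAergic cells held 34.5% of Gria1 UMIs in ShhN and 54.1% in WT, and excitatory neurons 36.7% in ShhN and 23.1% in WT. Of Gria4 UMIs, GABAergic cells held 28.9% in ShhN and 39.8% in WT, and excitatory neurons 39.5% in ShhN and 36% in WT. Grik1, a kainate subunit, had 22 UMIs in ShhN and 53 in WT (-1.56, -2.35 to -0.82), with 50% of these UMIs in GABAergic cells in ShhN and 73.6% in WT, and its weighted ratio was -0.85. Grid1, a delta receptor gene, had 50 UMIs in ShhN and 103 in WT (-1.34, -1.86 to -0.84), and -0.83 when weighted. The Lhx6-group, the richest class for Gria1 and Gria4, held a smaller share of cells in ShhN than in WT, as given above. Gria1 was also lower in ShhN within the Lhx6-group, and Gria4 within upper layer neurons, as given below. The part of class sizes in these ratios was not tested.

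Among members that did not pass, Gria2, Grin2b and Gabbr1 had the most UMIs. Gria2, the AMPA subunit that limits calcium entry, had 35988 UMIs in ShhN and 37359 in WT (-0.35, -0.37 to -0.33). Grin2b, the prevailing NMDA subunit of the embryo, had 10932 UMIs in ShhN and 11772 in WT (-0.40, -0.44 to -0.36). Gabbr1, the GABA-B subunit that binds GABA, had 5843 UMIs in ShhN and 6423 in WT (-0.43, -0.48 to -0.38). Their intervals lay below 0 but all 3 ratios were under 1 in size. Gria3, an X-linked AMPA subunit, was at 17.3 CPM in ShhN and 17.0 CPM in WT, and its interval of -0.11 to 0.16 included 0.

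Within classes, no member was higher past the size rule and 15 class values were lower. In radial glia 1 of 7 measured members was lower, where 0.86% of 7438 genes were, and in intermediate progenitors 1 of 11 was, where 1.84% of genes were. In migrating neurons 6 of 16 were lower (1.86% of all genes), in upper layer neurons 4 of 20 (0.537%), in deep layer neurons 2 of 23 (0.246%) and in the Lhx6-group 1 of 14 (0.212%). The shares of all genes that were higher in these classes, in the same order, were 0.86%, 2.98%, 1.15%, 0.308%, 0.174% and 1.35%. The median log2 ratio of the measured members was -0.80 in migrating neurons, -0.24 in both upper and deep layer neurons, -0.39 in intermediate progenitors and in the Lhx6-group, and -0.13 in radial glia. The medians of all genes in these classes lay between -0.10 and -0.04. Members pass the UMI minimum in a class only where they are detected there, so these medians leave out the rarer members.

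**Figure D2:**
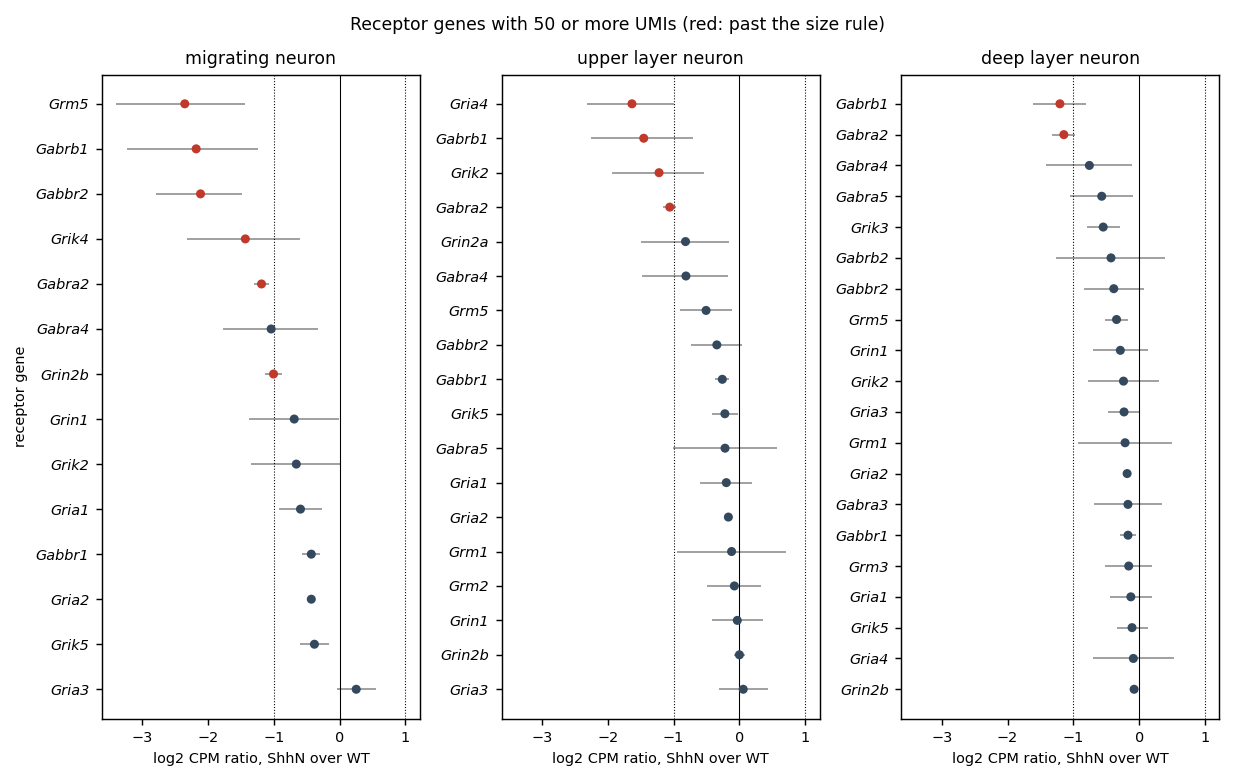
Log2 CPM ratio of ShhN over WT for receptor genes with 50 or more UMIs in migrating, upper layer and deep layer neurons, with 95% exact intervals for counting error, 1 library per group. Red points pass the size rule: 6 in migrating, 4 in upper layer and 2 in deep layer neurons, all lower in ShhN, and dotted lines mark a log2 ratio of 1 in size.

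Gabra2 was lower past the rule in all 6 classes, and it was the only gene to be so among the 5829 genes measured in all 6. With Leiden clusters in place of the marker classes, its ratio was -0.82 in radial glia and -0.58 in intermediate progenitors and did not pass in either. In radial glia it also did not pass with equal weight per cell or with thinning. Those higher in all 6 were Cdk6 and Top2a, which act in the cell cycle, and 2810417H13Rik. In migrating neurons Gabra2 had 901 UMIs in ShhN and 1773 in WT, or 105 CPM in ShhN and 239 CPM in WT (log2 ratio -1.19, -1.31 to -1.07). In upper layer neurons it was at 113 CPM in ShhN and 236 CPM in WT (-1.06, -1.16 to -0.96), and in deep layer neurons at 52.7 CPM in ShhN and 117 CPM in WT (-1.14, -1.32 to -0.97). The intervals of the 3 ratios overlapped one another.

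In the classes with fewer Gabra2 UMIs the direction was the same. Lhx6-group cells had 32.9 CPM of Gabra2 in ShhN and 73.4 CPM in WT (-1.16, -1.71 to -0.64), and intermediate progenitors 25.4 CPM in ShhN and 59.0 CPM in WT (-1.21, -1.51 to -0.92). Radial glia had 13 UMIs in ShhN and 40 in WT, or 5.34 CPM in ShhN and 23.9 CPM in WT (-2.16, -3.19 to -1.23). RNA outside cells, read from barcodes with 1 to 50 UMIs, held 67.9 CPM of Gabra2 in the ShhN library and 125 CPM in the WT library, above the level in radial glia, intermediate progenitors, Lhx6-group cells and deep layer neurons of the same library. With this free RNA subtracted no ratio could be had for radial glia, and the other 5 classes kept a lower value past the rule. Without cells that carry a Mki67 or Top2a UMI, Gabra2 did not pass in radial glia (-2.31), intermediate progenitors (-0.91) or the Lhx6-group (-0.89). In upper layer neurons it was -0.99 with TMM scaling and with thinning, short of the rule. It passed in migrating and deep layer neurons under every alternative run, with ratios of -1.44 to -1.12 in migrating and -1.35 to -1.05 in deep layer neurons.

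Counting cells gave the same order. With each cell thinned to 4500 UMIs, 28.0% of 1164 ShhN migrating neurons and 50.8% of 904 WT migrating neurons had a Gabra2 UMI, and without thinning 32.4% in ShhN and 51.3% in WT did. In upper layer neurons the thinned shares were 32.8% in ShhN and 54.0% in WT, and unthinned 44.4% in ShhN and 64.3% in WT. In deep layer neurons they were 13.2% in ShhN and 25.9% in WT, and unthinned 18.8% in ShhN and 30.1% in WT. Thinning left out 205 ShhN and 255 WT migrating neurons, 94 ShhN and 148 WT upper layer neurons, and 149 ShhN and 216 WT deep layer neurons. Vascular or meningeal cells, which should lack the gene, had a Gabra2 UMI in 0 of 28 thinned ShhN cells and 0 of 36 thinned WT cells, which allows shares of up to 10.7% in ShhN and 8.33% in WT. Their unthinned shares were 3.23% in ShhN and 2.08% in WT, at median depths of 7711 UMIs in ShhN and 7147 in WT, against 5898 in ShhN and 5706 in WT for migrating neurons.

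**Figure D3:**
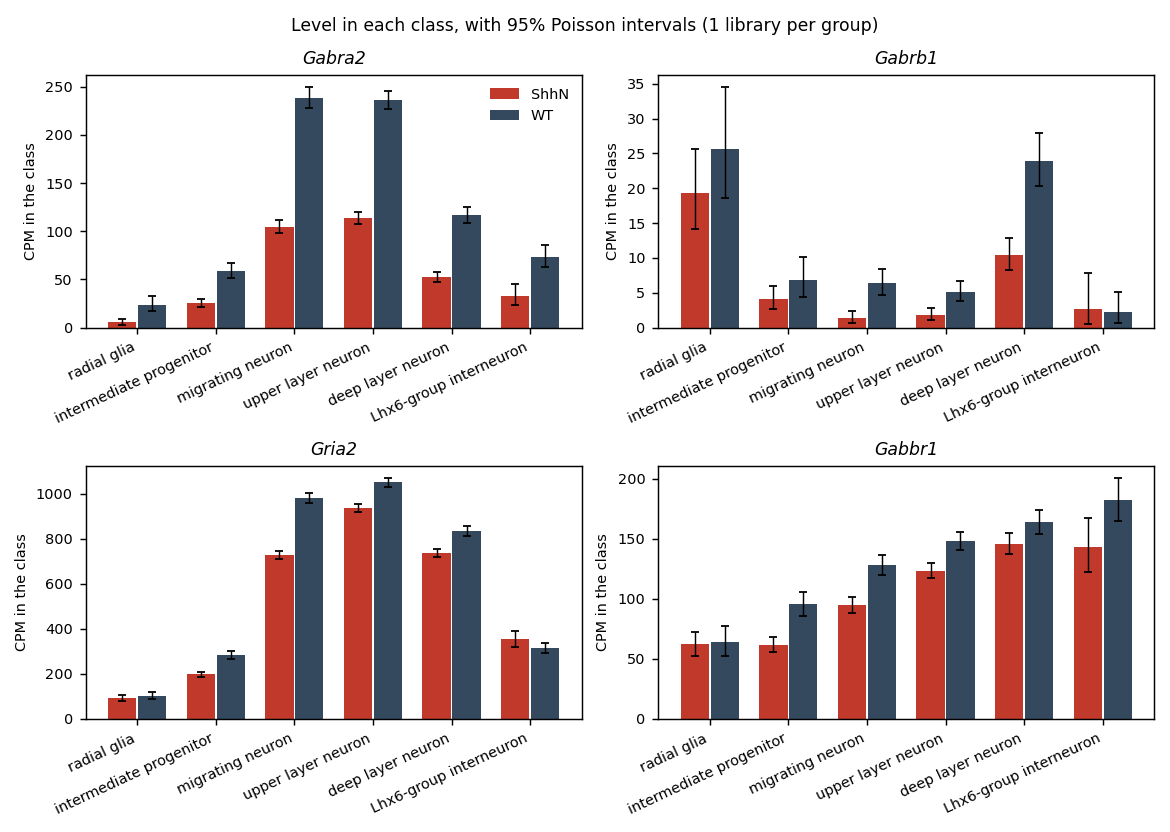
Level of Gabra2, Gabrb1, Gria2 and Gabbr1 in the 6 compared classes, ShhN beside WT, with 95% Poisson intervals that cover counting error of 1 library per group. The intervals of Gabra2 do not overlap between the libraries in any class. Those of Gria2 overlap in radial glia and in the Lhx6-group, where Gria2 is higher in ShhN. Those of Gabbr1 overlap in classes that include radial glia and deep layer neurons.

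Cells of the ShhN library with and without a Shh UMI were set against WT cells of the same class. In migrating neurons, Gabra2 was at 86.5 CPM (65.0 to 113) in the 90 ShhN cells with a Shh UMI and 106 CPM (99.1 to 114) in the 1279 without, against 239 CPM (228 to 250) in WT. In upper layer neurons it was at 89.9 CPM (75.8 to 106) in the 204 cells with a Shh UMI and 117 CPM (111 to 124) in the 1276 without, against 236 CPM (227 to 246) in WT. In deep layer neurons the values were 18 CPM (8.22 to 34.1) in 58 cells with a Shh UMI, 55.1 CPM (49.9 to 60.8) in 984 without and 117 CPM (109 to 125) in WT. ShhN cells without a Shh UMI were thus also below WT cells, beyond counting error, in all 3 classes. This was not particular to Gabra2. Gria2 and Gabbr1 were likewise lower in such cells in all 3 classes, as with Gria2 at 729 CPM against 981 CPM in WT migrating neurons. Grin2b was so in migrating neurons (95.2 CPM against 190 CPM in WT), while its intervals overlapped in upper and deep layer neurons. A cell without a Shh UMI may still carry the plasmid.

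Gabra2 lies in a group of 4 GABA-A receptor genes on chromosome 5 with Gabrg1, Gabra4 and Gabrb1, which follow one another with no other measured gene between them. The group is shown because Gabra2 and Gabrb1 were both lower in ShhN in migrating, upper layer and deep layer neurons. The sequences are the 250 bases before the start site of each gene, from RefSeq on GRCm38.p6, written 5′ to 3′ on the strand of the gene. Capitals mark the motif TAATTA, the core bound by many homeodomain factors.

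Gabrg1, chr5:70842618-70842867, minus strand: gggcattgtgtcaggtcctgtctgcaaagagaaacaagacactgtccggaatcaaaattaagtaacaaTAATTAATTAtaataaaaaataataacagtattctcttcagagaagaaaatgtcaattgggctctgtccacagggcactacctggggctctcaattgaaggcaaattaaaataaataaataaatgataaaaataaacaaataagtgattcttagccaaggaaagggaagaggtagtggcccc
Gabra2, chr5:71095850-71096099, minus strand: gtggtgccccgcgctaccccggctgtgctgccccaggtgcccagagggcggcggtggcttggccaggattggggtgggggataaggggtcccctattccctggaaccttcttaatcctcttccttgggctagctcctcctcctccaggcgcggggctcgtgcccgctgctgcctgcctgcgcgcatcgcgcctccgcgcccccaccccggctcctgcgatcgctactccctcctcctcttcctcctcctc
Gabra4, chr5:71658309-71658558, minus strand: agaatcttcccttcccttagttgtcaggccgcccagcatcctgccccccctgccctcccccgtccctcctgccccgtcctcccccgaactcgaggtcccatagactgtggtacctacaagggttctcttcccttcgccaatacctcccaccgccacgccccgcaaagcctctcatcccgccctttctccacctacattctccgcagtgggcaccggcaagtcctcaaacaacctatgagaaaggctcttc
Gabrb1, chr5:71657671-71657920, plus strand: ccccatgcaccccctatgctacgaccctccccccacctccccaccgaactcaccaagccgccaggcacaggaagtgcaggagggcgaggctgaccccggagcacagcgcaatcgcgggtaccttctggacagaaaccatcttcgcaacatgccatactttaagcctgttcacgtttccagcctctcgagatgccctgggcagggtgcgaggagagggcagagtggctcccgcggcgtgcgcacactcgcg

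The Gabra2 promoter is 70% G or C with 18 CpG, that of Gabrb1 is 64.4% with 18 CpG and that of Gabra4 is 61.2% with 12 CpG, where the median of 32851 promoters is 52.4% with 6 CpG. Gabrg1 has 35.6% and 1 CpG, and it holds TAATTA in 2 overlapping copies. TAATTA occurs in 4.84% of all promoters of the same length on either strand, and not in those of Gabra2, Gabrb1 and Gabra4. The letters GACCACCCA, the core of the site of GLI factors that carry SHH signals to the genome, occur in 0.225% of all promoters and in none of these 4. CAGATG, an E-box of the NEUROD kind, occurs in 14.4% of all promoters and in none of the 4. A second start site of Gabrb1, at chr5:71699682-71699931, also held none of the 3 motifs. RefSeq promoters were found for 23 of the 38 members.

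**Figure D4:**
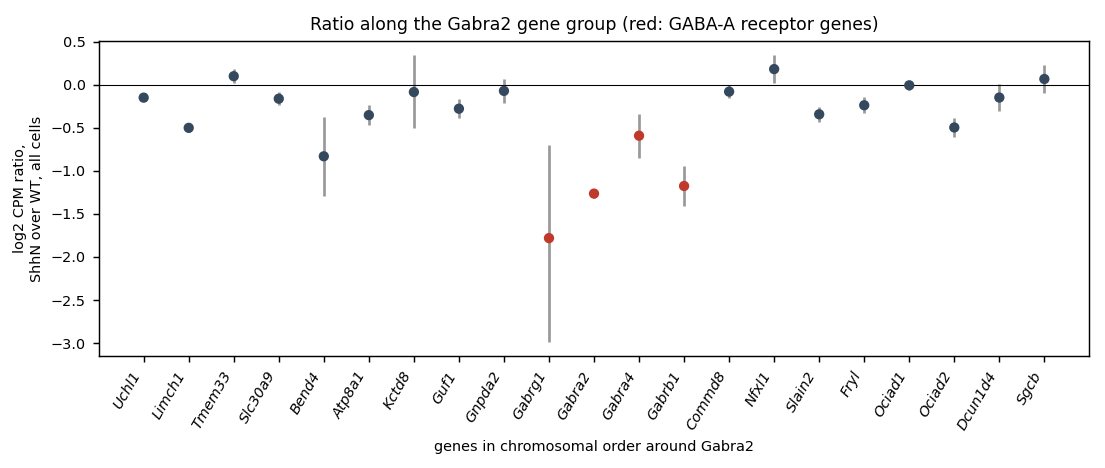
Log2 CPM ratio of ShhN over WT over all cells for 21 genes in chromosomal order, Gabra2 and the nearest 10 on each side with 50 or more UMIs or a receptor symbol, with 95% exact intervals (1 library per group). The 4 GABA-A receptor genes in red are at -1.78, -1.26, -0.59 and -1.18, and the genes on either side of the group, Gnpda2 and Commd8, are at -0.07 and -0.08.

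Along the chromosome the 2 genes lower past the rule were Gabra2 and Gabrb1. Gabrg1, a gamma subunit, had 10 UMIs in ShhN and 28 in WT (-1.78, -2.99 to -0.70), too few for the size rule. Gabra4, an alpha subunit, had 228 UMIs in ShhN and 280 in WT (-0.59, -0.85 to -0.33). The nearest genes outside the group were Gnpda2 with 931 UMIs in ShhN and 797 in WT (-0.07, -0.21 to 0.07) and Commd8 with 3360 UMIs in ShhN and 2894 in WT (-0.08, -0.15 to -0.01). Among the 17 genes that flank the group, the ratios lay between -0.83 for Bend4 and 0.18 for Nfxl1, and none passed. The annotated bodies of Gabra4 and Gabrb1 overlap by 196 bases on opposite strands at their start sites, and the sources used here do not state whether counting used strand.

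In the 3 excitatory classes Gabrb1 was lower too. It had 12 UMIs in ShhN and 47 in WT migrating neurons (-2.18, -3.23 to -1.25), 21 in ShhN and 53 in WT upper layer neurons (-1.46, -2.26 to -0.70), and 80 in ShhN and 159 in WT deep layer neurons (-1.20, -1.61 to -0.81). In radial glia it was at 19.3 CPM in ShhN and 25.7 CPM in WT, with an interval of -1.04 to 0.22 for the log2 ratio, and in intermediate progenitors at 4.11 CPM in ShhN and 6.83 CPM in WT (-1.57 to 0.11). The interval of radial glia lay above that of migrating neurons but overlapped those of upper and deep layer neurons. The interval of intermediate progenitors overlapped all 3. Whether progenitors and neurons differ in this ratio was not tested.

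The migrating class also differed in Gabbr2, Grm5, Grik4 and Grin2b. Gabbr2, the GABA-B subunit that couples to G proteins, had 27 UMIs in ShhN and 101 in WT (-2.12, -2.79 to -1.49). Grm5, the metabotropic receptor mGluR5, had 12 UMIs in ShhN and 53 in WT (-2.36, -3.40 to -1.43), and Grik4, a high-affinity kainate subunit, 18 in ShhN and 42 in WT (-1.43, -2.32 to -0.61). Grin2b had 815 UMIs in ShhN and 1413 in WT (-1.01, -1.13 to -0.88), a value at the edge of the rule. Gabra2 and Gabbr2 passed under all 12 alternatives in this class, Gabrb1 and Grik4 under 9, and Grin2b and Grm5 under 8.

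The migrating class was not made up alike in the 2 libraries. In WT it was also led by Nrp2, Zbtb20 and Crym, which were named here after their values had been seen. Nrp2, a semaphorin receptor, was at 36.4 CPM in ShhN and 144 CPM in WT migrating neurons (-1.98, -2.17 to -1.80). Zbtb20, a transcription factor of hippocampal and other neurons, was at 647 CPM in ShhN and 1454 CPM in WT (-1.17, -1.22 to -1.12), and Crym at 43.0 CPM in ShhN and 114 CPM in WT (-1.41, -1.59 to -1.23). Rnd2, one of the markers that defined the migrating class, was at 246 CPM in ShhN and 191 CPM in WT (0.36, 0.26 to 0.46). The part of this make-up in the receptor values of the class was not tested. In deep layer neurons, Gabbr2 was at 10.2 CPM in ShhN and 13.4 CPM in WT (-0.39, -0.84 to 0.07), Grin2b at 570 CPM in ShhN and 602 CPM in WT (-0.08, -0.14 to -0.01) and Grm5 at 66.0 CPM in ShhN and 83.7 CPM in WT (-0.34, -0.52 to -0.17).

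In upper layer neurons 2 further genes passed. Gria4 had 28 UMIs in ShhN and 80 in WT (-1.63, -2.31 to -1.0), and Grik2, a kainate subunit, had 27 in ShhN and 58 in WT (-1.22, -1.94 to -0.54). Neither passed in deep layer neurons, where Gria4 had 48 UMIs in ShhN and 44 in WT (-0.09, -0.71 to 0.54) and Grik2 had 59 in ShhN and 60 in WT (-0.24, -0.78 to 0.30). The difference between the layers in these ratios was not tested. Gria4 passed in upper layer neurons under 11 of 12 alternatives and Grik2 under 7. Grin2b was at 228 CPM in both libraries in upper layer neurons, with an interval of -0.08 to 0.08.

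In radial glia, Grin2b was at 72.7 CPM in ShhN and 46.0 CPM in WT (0.66, 0.27 to 1.07), under the size rule. Gabra4 was at 20.1 CPM in ShhN and 23.9 CPM in WT, Grik5 at 28.3 CPM in ShhN and 24.5 CPM in WT, and Gabbr1 at 62.0 CPM in ShhN and 63.9 CPM in WT, all with intervals that include 0.

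The classes themselves were set against each other within each library, which asks where each receptor gene is used. GABAergic cells of all 3 groups together were set against excitatory neurons, and the groups were not alike. GABAergic cells over excitatory neurons gave 5 higher and 4 lower members of 26 in ShhN, where 9.43% of all genes were higher and 6.57% lower. In WT 8 were higher and 6 lower of 28, where 4.67% of all genes were higher and 5.9% lower. In both libraries 8 members passed in the same direction, where the share of all genes that did so was not counted. Gria1, Gria4, Gabrg3, Grm5 and Grik2 were higher, and Gria2, Gria3 and Gabra2 were lower. The GABAergic cells of ShhN held more of the dividing other Dlx cells, so the Lhx6-group was also compared alone. In this group too the libraries differed, with 14.9% of ShhN cells and 2.19% of WT cells carrying a Mki67 or Top2a UMI. The Lhx6-group alone gave 7 higher and 2 lower members of 26 in ShhN, where 5.42% of all genes were higher and 3.2% lower. In WT it gave 9 higher and 4 lower of 28, where 4.29% of all genes were higher and 6.1% lower. Gria1, Gria2 and Grm5 passed in both libraries under all 13 alternatives run for GABAergic cells.

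Gria1 was at 335 CPM in Lhx6-group cells of ShhN and 15 CPM in excitatory neurons of ShhN (log2 ratio 4.48, 4.27 to 4.68), and at 449 CPM in Lhx6-group cells of WT and 18.5 CPM in excitatory neurons of WT (4.60, 4.44 to 4.76). Gria4 was at 49.9 CPM in the Lhx6-group and 3.25 CPM in excitatory neurons in ShhN (3.94, 3.43 to 4.44), and at 68.6 CPM and 6.12 CPM in WT (3.49, 3.15 to 3.82). Gria2 ran the other way, at 355 CPM in the Lhx6-group and 815 CPM in excitatory neurons of ShhN (-1.20, -1.34 to -1.06), and at 313 CPM and 972 CPM in WT (-1.63, -1.74 to -1.53). AMPA receptors without the Gria2 subunit are known to pass calcium.

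Gria1 took up 44.6% of AMPA UMIs in the Lhx6-group of ShhN and 53.3% in that of WT, against 0.965% of ShhN and 0.984% of WT AMPA UMIs in upper layer neurons. Gria2 took up 47.3% in the Lhx6-group of ShhN and 37.2% in that of WT, and 97.6% in upper layer neurons of ShhN and 97.3% in those of WT. Capture can differ between genes, so such a share is compared across classes and libraries and not read as the share of subunits in a receptor. The intervals of Gria1 in the Lhx6-group, 41.2 to 48.0% in ShhN and 51.1 to 55.6% in WT, did not overlap. In this group 14.9% of ShhN cells and 2.19% of WT cells carried a Mki67 or Top2a UMI. The part of this in the Gria1 share was not tested. Cajal-Retzius cells, which are excitatory, stood between these classes, with Gria1 at 20.6% of AMPA UMIs in ShhN and 21.7% in WT.

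**Figure D5:**
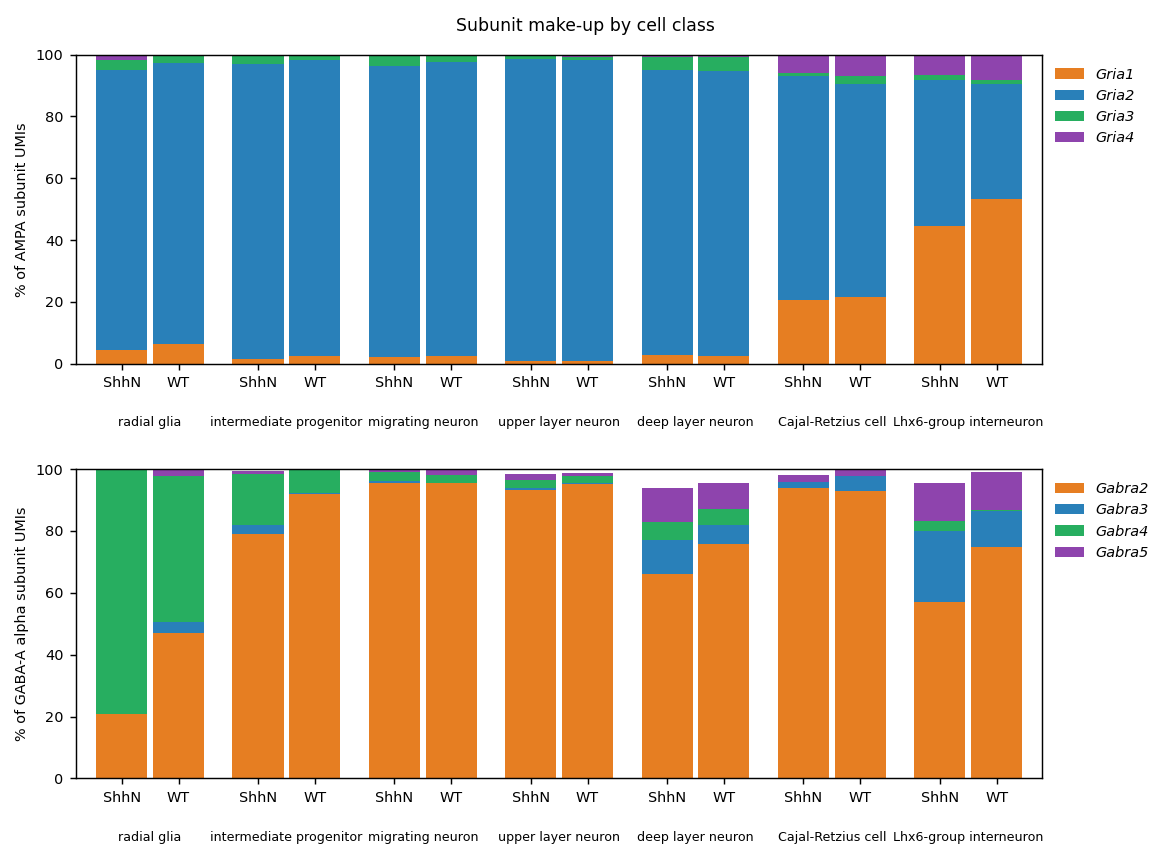
Percentage of the UMIs of the 4 AMPA subunits (top) and of the GABA-A alpha subunits (bottom) that each gene shown takes up in 7 cell classes, with ShhN and WT bars side by side and the rest of the UMIs left blank. Gria1 reaches 44.6% in the Lhx6-group of ShhN and 53.3% in that of WT, and Gabra4 reaches 79.0% in radial glia of ShhN and 47.1% in those of WT.

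The Npas1-group did not share the Gria1 level. It had 8.82 CPM of Gria1 (2.86 to 20.6) in ShhN and 35.6 CPM (22.6 to 53.4) in WT. Grm5 was likewise at 3.53 CPM in ShhN and 21.7 CPM in WT in the Npas1-group, but at 194 CPM in ShhN and 213 CPM in WT in the Lhx6-group. In the Npas1-group 38.8% of ShhN cells and 4.14% of WT cells carried a Mki67 or Top2a UMI.

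Gabrg3, a gamma subunit of GABA-A receptors, was at 26.7 CPM in the Lhx6-group and 1.55 CPM in excitatory neurons of ShhN (4.10, 3.38 to 4.81), and at 19.9 CPM and 1.47 CPM in WT (3.76, 3.1 to 4.44). It took up 44.1% of gamma subunit UMIs in the Lhx6-group of ShhN and 29.4% in that of WT, against 2.46% in deep layer neurons of ShhN and 2.22% in those of WT. Cajal-Retzius cells were also rich in it, at 45.3 CPM in ShhN and 47.3 CPM in WT. Grik1 was at 8.90 CPM in ShhN and 16.8 CPM in WT in the Lhx6-group, which held 10 of its 22 UMIs in ShhN and 38 of its 53 UMIs in WT.

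Gria3 and Grik2 were less firm. Gria3 was lower in GABAergic cells, at 6.13 CPM against 22.4 CPM in excitatory neurons in ShhN (-1.87, -2.57 to -1.24) and 10.1 CPM against 22.3 CPM in WT (-1.14, -1.70 to -0.62). It did not pass in the Lhx6-group alone in either library, and in WT its ratio was 0.09 with cells thinned to 4500 UMIs. Grik2 passed in ShhN at 1.29 (0.71 to 1.84) and in WT at 1.10 (0.59 to 1.58), but not in WT under 5 of 13 alternatives.

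Further members passed in 1 library only. Higher in GABAergic cells of WT were Gabra3, an X-linked alpha subunit (1.54, 0.89 to 2.15), Grik3, a kainate subunit (1.44, 1.13 to 1.76), and Grin1, the obligatory NMDA subunit (1.23, 0.85 to 1.60). Lower in those of WT were Gabra4 (-2.72), Gabrb1 (-2.25) and Grm2, a presynaptic metabotropic receptor (-2.09). These 3 values rest on few UMIs. GABAergic cells of WT held 1.07% of 280 Gabra4 UMIs, 1.59% of 440 Gabrb1 UMIs and 1.96% of 204 Grm2 UMIs. Grm2 passed under 8 of 12 alternatives, and not with the Lhx6-group alone. In ShhN alone Grin2b was lower (-1.03, -1.16 to -0.89), and in the Lhx6-group taken alone it was at 276 CPM against 282 CPM in excitatory neurons. Whether the libraries differ in these ratios was not tested.

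Deep layer neurons had higher levels of most measured members than upper layer neurons. In ShhN 12 of 24 measured members were higher and 2 lower, where 4.93% of all genes were higher and 2.21% lower, and in WT 10 of 24 were higher and 2 lower, where 5.18% of all genes were higher and 2.37% lower. The median log2 ratio of the members was 1.09 in ShhN and 0.78 in WT, against -0.06 in ShhN and -0.04 in WT for all genes. In both libraries 12 members passed in the same direction, and 6 of these (Grik3, Grm3, Grm5, Gria3, Grin2b and Gabrb1) did so under every alternative that gave a value. The share of all genes that passed in both libraries was not counted. Deep layer neurons are born before upper layer neurons, and had similar depth, with medians of 7399 UMIs in ShhN and 7253 in WT, against 7555 in ShhN and 6954 in WT for upper layer neurons.

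The kainate gene Grik3 and the metabotropic gene Grm3 showed the greatest ratios among members past the rule. Grik3 had 239 UMIs in deep and 19 in upper layer neurons of ShhN (4.21, 3.53 to 4.97), and 301 in deep and 16 in upper layer neurons of WT (4.88, 4.16 to 5.71). Grm3, a metabotropic receptor that inhibits adenylyl cyclase, had 134 UMIs in deep and 12 in upper layer neurons of ShhN (4.04, 3.19 to 5.03), and 129 and 8 in WT (4.66, 3.64 to 5.90). Grm5 had 509 UMIs in deep and 94 in upper layer neurons of ShhN (2.99, 2.67 to 3.33), and 557 and 123 in WT (2.83, 2.55 to 3.12). Grm2, of the same group as Grm3, was the reverse, with 8 UMIs in deep and 104 in upper layer neurons of ShhN (-3.14, -4.39 to -2.11) and 17 and 101 in WT (-1.92, -2.75 to -1.17).

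The GABA-A genes split between the layers. Gabra2 was lower in deep layer neurons, at 52.7 CPM against 113 CPM in upper layer neurons of ShhN (-1.10, -1.27 to -0.94) and 117 CPM against 236 CPM in WT (-1.02, -1.14 to -0.90). It did not pass in ShhN with at most 5% mt- UMIs (ratio nearest 0, -0.98), nor in WT under 3 of 12 alternatives (nearest 0, -0.88). Gabra3 was higher, at 8.81 CPM in deep and 0.969 CPM in upper layer neurons of ShhN (3.18, 2.26 to 4.25) and 9.92 and 1.34 CPM in WT (2.89, 2.04 to 3.84). Gabra5, the alpha subunit of many receptors outside synapses, was higher at 1.84 (1.18 to 2.53) in ShhN and 2.19 (1.57 to 2.84) in WT. Gabrb1 was higher at 2.49 (1.78 to 3.25) in ShhN and 2.24 (1.78 to 2.71) in WT. As a share of alpha subunit UMIs, Gabra2 took up 66.2% in deep layer neurons of ShhN and 75.6% in those of WT, against 93.3% in upper layer neurons of ShhN and 95.1% in those of WT. Gabra5 shares part of its gene body with a gene on the other strand, so its count would be uncertain if strand was not used.

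Of the channels for glutamate, Grin2b was at 570 CPM in deep and 228 CPM in upper layer neurons of ShhN (1.32, 1.25 to 1.39) and at 602 and 228 CPM in WT (1.40, 1.33 to 1.47). Gria2, the member with the most UMIs, was lower in deep layer neurons of both libraries, under the size rule. In WT it was at 836 CPM in deep and 1051 CPM in upper layer neurons. Gria3 had log2 ratios of 1.60 (1.29 to 1.91) in ShhN and 1.89 (1.57 to 2.21) in WT, and Gria1 of 1.25 (0.89 to 1.62) in ShhN and 1.18 (0.82 to 1.54) in WT. Grik2 and Gria4 were higher past the rule in ShhN alone, at 1.68 (1.0 to 2.4) and 1.33 (0.63 to 2.06). Both were among the 4 members lower past the rule in upper layer neurons of ShhN, as given above. Whether the libraries differ in the ratio of deep to upper layer neurons was not tested.

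Migrating neurons were set against radial glia and intermediate progenitors together. In ShhN 6 of 12 measured members were higher and 2 lower, where 7.52% of all genes were higher and 11.4% lower. In WT 11 of 16 were higher and 0 lower, where 8.18% of all genes were higher and 9.69% lower. Among the members higher in both libraries were Gabra2, Gria1, Gria2, Gria3 and Grin2b. Gabra2 was at 105 CPM in migrating neurons and 20.0 CPM in progenitors of ShhN (2.39, 2.16 to 2.63), and at 239 and 48.0 CPM in WT (2.31, 2.12 to 2.51). Gria2 was at 727 and 170 CPM in ShhN (2.10, 2.02 to 2.18), and at 981 and 227 CPM in WT (2.11, 2.02 to 2.20). These and the ratios of Gria1 and Gria3 passed under all 12 alternatives in both libraries. Grin2b had ratios of 1.28 (1.09 to 1.46) in ShhN and 2.46 (2.23 to 2.68) in WT.

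Gabra4 was highest in radial glia among the 6 compared classes of both libraries. It was at 20.1 CPM (14.9 to 26.6) in radial glia of ShhN and 23.9 CPM (17.1 to 32.5) in those of WT, and at most 7.66 CPM in the excitatory neuron classes of either library. It took up 79.0% of alpha subunit UMIs in radial glia of ShhN and 47.1% in those of WT, the only class of the 6 compared where Gabra2 did not hold most of them. Gabrb1 took up 92.2% of beta subunit UMIs in radial glia of ShhN and 81.1% in those of WT, against 4.71% in upper layer neurons of ShhN and 10.5% in those of WT, and 17.1% in deep layer neurons of ShhN and 27.8% in those of WT. Its level in deep layer neurons of WT, 23.9 CPM, was close to the 25.7 CPM of radial glia of WT. Against radial glia and intermediate progenitors together, Gabra4 and Gabrb1 were lower in migrating neurons of ShhN, at -1.57 (-2.26 to -0.93) and -2.56 (-3.58 to -1.67), and neither passed in WT.

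Cajal-Retzius cells, 30 in ShhN and 71 in WT, were too few for the comparison between libraries. Their Gabra2 level was 149 CPM (109 to 199) in ShhN and 186 CPM (156 to 221) in WT, with intervals that overlap. Grm2 was at 19.4 CPM in ShhN and 37.2 CPM in WT, and Grin3a, an NMDA subunit that lowers calcium entry, at 22.7 CPM in ShhN and 20.1 CPM in WT, against 0.264 CPM of Grin3a in ShhN and 0.287 CPM in WT upper layer neurons.

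Grik5 and Gabbr1 were detected in all 6 compared classes. Grik5, a kainate subunit that needs a partner to form channels, lay between 24.4 and 40.4 CPM over the 6 compared classes of ShhN and between 24.5 and 49.0 CPM over those of WT. Gabbr1 lay between 61.8 and 146 CPM in ShhN and between 63.9 and 182 CPM in WT, while Gabbr2 reached at most 10.2 CPM in ShhN and 13.6 CPM in WT in these classes. In vascular or meningeal cells all members together came to 59.9 CPM in ShhN and 184 CPM in WT, against 1898 CPM in ShhN and 2208 CPM in WT in deep layer neurons.

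Genes that work with the receptors were read from lists of 73 partners. Over all cells, 4 of 14 measured genes of transmitter synthesis and transport were lower in ShhN and 0 higher, 3 of 22 glutamate anchors were lower, 3 of 19 auxiliary subunits of AMPA and kainate receptors were lower and 1 higher, and 0 of 12 GABA anchors passed. The background was 2.84% higher and 1.85% lower, as for the members. Among the lower genes were Slc32a1, the vesicular GABA transporter (-1.25), Gad1, which makes GABA (-1.04), and Abat, which degrades it (-1.22). Gad1 and Slc32a1 mark GABAergic cells and were among the markers that defined them, while Abat was not. Lower too were the anchors Dlgap1 (-1.10), Dlgap2 (-1.27) and Nptxr (-1.15) and the auxiliary subunits Cacng3 (-1.45), Gsg1l (-1.07) and Neto1 (-1.13). Cacng5, of the family of transmembrane AMPA receptor regulatory proteins, was higher.

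Cacng5 was at 4.09 CPM in ShhN and 1.63 CPM in WT over all cells (1.33, 0.95 to 1.72). In radial glia it had 70 UMIs in ShhN and 7 in WT, or 28.7 CPM in ShhN and 4.18 CPM in WT (2.78, 1.66 to 4.15). Cnih3, a cornichon that slows AMPA channels, was lower in radial glia at 9.03 CPM in ShhN and 28.1 CPM in WT (-1.64, -2.44 to -0.88), in intermediate progenitors (-2.02, -2.64 to -1.43) and in migrating neurons (-1.27, -1.52 to -1.03). In deep layer neurons none of 15 auxiliary subunits, 19 glutamate anchors, 11 GABA anchors and 8 genes of synthesis and transport passed. Only 0.174% of all genes were higher and 0.246% lower in that class, so none passing is near these shares. Upper layer neurons had only Slc1a2, a glutamate transporter (-1.24, -2.02 to -0.50), where 0.308% of all genes were higher and 0.537% lower.

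In intermediate progenitors Abat (-2.43), Shisa9 (-2.20) and Slc1a2 (-1.17) were also lower. In migrating neurons Dlgap1 (-1.90), Nptxr (-1.47), Kctd12 (-1.29), a GABA-B auxiliary subunit, and Slc1a2 (-1.21) were. In the Lhx6-group Slc1a3, a glutamate transporter of radial glia, was higher, with 31.2 CPM in ShhN and 7.96 CPM in WT (1.97, 1.11 to 2.88). Of the chloride transporters Slc12a2 and Slc12a5, which set the direction of GABA currents, neither passed over all cells, and their median log2 ratio was -0.68.

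Partners also differed between classes. Dlgap1 and Dlgap2, which bind the scaffold of glutamate synapses, and Cacng3 and Neto1 were higher in GABAergic cells than in excitatory neurons of both libraries. Cacng3 was at 89.0 CPM in the Lhx6-group and 0.434 CPM in excitatory neurons of ShhN (7.68, 6.81 to 8.68) and at 108 and 0.734 CPM in WT (7.20, 6.51 to 7.98). Cnih3 was higher in deep than in upper layer neurons, at 3.6 (3.32 to 3.89) in ShhN and 3.82 (3.52 to 4.14) in WT, and Kctd12 at 4.50 (4.14 to 4.89) in ShhN and 4.09 (3.74 to 4.46) in WT. Migrating neurons had more Cacng2, the AMPA auxiliary subunit stargazin, than progenitors, at 3.0 (2.37 to 3.70) in ShhN and 2.79 (2.19 to 3.44) in WT.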

How the data were processed

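The values are counts of UMIs per gene and barcode, deposited by the authors without normalization as 1 matrix per group. A control or experimental prefix is all that names each matrix, and these were taken as WT and ShhN. The submitters' processing notes list Cell Ranger, StringTie, Seurat 3 and mm10 without saying what each was used for. The members, marker lists and partner lists were chosen with earlier results of these data known.

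Cells were barcodes with at least 2300 UMIs, at least 800 genes and at most 10% mt- UMIs. Doublets were called by scrublet (scanpy 1.11.5, expected share 6%) and removed (2.96% of ShhN and 3.87% of WT barcodes). A class needed a set number of detected markers, and the remaining excitatory neurons went to the highest of 3 standardized marker scores with a margin of 0.5. These names were rebuilt here. For each class the UMIs of a library were added up and expressed as CPM, with exact Poisson, conditional binomial and Clopper-Pearson intervals (95%, scipy 1.17.1). The ratios were checked on simulated counts. Alternatives included TMM scaling in edgeR 4.0.16 and Leiden clusters. Members with 200 or more UMIs or past the size rule were named, and partners where past it. Gene positions are those of GENCODE M21. Counts of genes cover all members and partners, but some genes are not reported by name here.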

Additional observations from a re-analysis of the deposited data

How the results depend on the processing

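Among ratios that passed the size rule, direction held under the alternatives run for all but 1: Gria3 in GABAergic cells over excitatory neurons of WT, -1.14, was 0.0931 with cells thinned to 4500 UMIs. With thinning 3 members passed in both libraries in that comparison, where 8 had, and 7 class values of ShhN over WT passed, where 15 had. Thinning keeps fewer cells and UMIs, and in the Lhx6-group it kept 92 of 222 ShhN cells and 100 of 549 WT cells. Over all cells, 7 members passed, 11 with at most 5% mt- UMIs, 3 with classes weighted to WT shares, and 4 without interneuron and other Dlx cells, an alternative chosen after the data were seen. Within classes 24 values passed with no UMI minimum. Deep over upper layer neurons gave 9 to 14 members and migrating neurons over progenitors 5 to 9. Of the other values for single genes, 1127 stayed within the counting interval of the main value and 187 moved outside it.

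Gabra2 in ShhN over WT did not pass in upper layer neurons under TMM scaling or thinning (ratio nearest 0, -0.99). It did not pass in intermediate progenitors with Leiden clusters, where it was -0.58 at its nearest to 0, or without dividing cells, nor in radial glia with Leiden clusters, with equal weight per cell, thinned or without dividing cells. In the Lhx6-group it did not pass without dividing cells (-0.89). Grin2b in migrating neurons did not pass under TMM, at most 5% mt- UMIs, equal weight or thinning. TMM scaling subtracted a log2 factor of -0.12 from each ratio in intermediate progenitors. In GABAergic cells over excitatory neurons of ShhN it subtracted 0.11, and elsewhere the factor was under 0.1 in size. The cause of these changes was not tested.

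No paired analysis was possible because the replicate numbers of the labels are not carried by the cells of the matrices. With 1 library per group, differences between embryos, electroporations and libraries are part of every ShhN over WT value. Members with under 50 UMIs in a class were not measured there, and their absence from a count is no sign of their level.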

Other observations

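Gabrd, the delta subunit of GABA-A receptors, had 34 UMIs in ShhN and 16 in WT over all cells, of which 28 in ShhN and 14 in WT lay in deep layer neurons. Grm4, a presynaptic metabotropic receptor, had 7 UMIs in ShhN and 33 in WT over all cells, of which 1 in ShhN and 15 in WT lay in migrating neurons and 4 in ShhN and 9 in WT in the Lhx6-group. Grin3a had 11 UMIs in ShhN and 25 in WT in the Lhx6-group and 0 in intermediate progenitors of both libraries. All lay under the UMI minimum of the size rule in at least 1 of these comparisons and are given as counts.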
